A study of Mus musculus with 16 samples.

Results

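The clustered protocadherins are 3 neighbouring gene arrays, alpha, beta and gamma, that encode cadherin-related proteins of the cell surface. They were taken as every gene of the deposited tables whose symbol is Pcdha, Pcdhb or Pcdhg, with an optional subfamily letter, followed by a number. This gave 58 of 17097 genes: 14 in the alpha cluster, 22 in the beta cluster and 22 in the gamma cluster. Single protocadherin genes elsewhere in the genome, such as Pcdh9, were not members and are described as a comparison list.

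Each variable exon of the alpha and gamma clusters has its own promoter and encodes the extracellular cadherin repeats, the membrane segment and a stretch of the cytoplasmic tail. It is spliced to constant exons at the 3' end that all genes of that cluster use, whereas the beta genes have no constant exons. Neurons and astrocytes choose among the alternate promoters, so that neighbouring cells carry different sets of isoforms, and the proteins bind matching isoforms on other cells. The last genes of the alpha and gamma arrays, called C-type, are less subject to that choice. The gamma genes are known for roles in the branching of astrocytes, in dendrite self-avoidance and in neuron survival.

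RNA was measured in whole striatum of male wild-type C57BL/6J mice aged 63 days, collected 2 h after the mice received vehicle or 1 mg/kg clozapine N-oxide (CNO), the ligand of designer receptors. The study concerns activation of the Gi pathway in astrocytes. The labels used here name neither the receptor nor the carrier of the tag, and there was no group that received CNO without a receptor. From each mouse 1 library came from cleared tissue lysate (input) and 1 from ribosome-associated RNA of astrocytes precipitated through a hemagglutinin tag (IP). The 4 groups of 4 libraries were vehicle input, CNO input, vehicle IP and CNO IP, with replicates numbered 2 to 5. The titles carry 8 mouse codes, taken here as 8 animals, while the series text speaks of 4 mice. If there were fewer animals, a p-value reflects the scatter among these libraries and not among mice.

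Reads assigned to genes numbered 32.8 to 40.3 M per input library and 52.1 to 61.5 M per IP library. The deposited values were log2 CPM, the logarithm of read counts relative to the scaled depth of the library. In vehicle mice all 15 astrocyte markers were higher in IP than in input (log2 difference 1.73 to 3.86), and their summed level was 3832 to 4156 CPM in input and 32580 to 39430 CPM in IP. All 12 markers of medium spiny neurons, 10 of microglia and 10 of endothelium were lower in IP. Of 12 pan-neuronal markers, 3 were higher and 5 lower in IP, with a median log2 difference of 0.02. Their mean summed level was 4783 CPM in vehicle input and 4173 CPM in vehicle IP. Other cell types were also higher in IP: 8 of 10 interneuron, 7 of 7 ependymal and 7 of 10 oligodendrocyte markers. The summed oligodendrocyte markers lay between 5940 and 13610 CPM in vehicle IP and between 5143 and 6421 CPM in vehicle input. The part of these cell types in the protocadherin results was not tested. In bulk RNA, fewer cells of a type and less RNA per cell cannot be told apart.

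All members lie on the plus strand of chromosome 18 (GRCm38 coordinates, GENCODE M21 models). The alpha genes spanned chr18:36930184-37187661, the beta genes chr18:37264938-37524479 and the gamma genes chr18:37661793-37841873. In the alpha cluster 2860 exonic bases, and in the gamma cluster 2119, were exonic in the majority of the genes, which marks the constant exons. In the beta cluster 0 bases were shared so widely. No source used here states the counting mode or the strand setting, and it is unknown how reads in constant exons were assigned. Values for alpha and gamma genes are therefore read here as levels of a gene as counted by the authors. Other annotated genes overlap exons of several members: BC037039 overlaps Pcdhgc3 and Gm26672 overlaps Pcdhga10, Pcdhga11, Pcdhga12 and Pcdhgb7. Gm37013, Gm37388, Gm38182 and Gm42416 overlap exons of the gamma genes. Of the exonic bases not shared with members, 404 of 2904 in Pcdha4 and 1268 of 4675 in Pcdha11 lay outside exons of other genes. For Pcdhb12 they were 1107 of 3034 and for Pcdhga10 0 of 2613. Exons of Pcdha6, Pcdha7 and Pcdha12 are also overlapped in part. The strand of the overlapping genes was not compared, and how reads in such overlaps were assigned is unknown. Stretches of 50 bases of the longest own exon that recur in another member made up 0 to 23.4% of a member, with the highest share in Pcdha7, whose partner was Pcdha8, so these 2 values are less certain.

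The gamma cluster was the most abundant in all 4 groups, and it was the only 1 of the 3 with a higher summed level in IP than in input. In vehicle input the gamma sum was 392 ± 19.8 CPM (SD, n = 4), and in vehicle IP it was 1038 ± 65.3 CPM. In CNO mice it was 410 ± 14.7 CPM in input and 1050 ± 36.0 CPM in IP. No IP library fell near the input libraries: the highest gamma sum in input was 430 CPM and the lowest in IP was 976 CPM.

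The alpha sum was 73.4 ± 2.83 CPM in vehicle input, 77.5 ± 5.93 CPM in CNO input, 65.0 ± 5.69 CPM in vehicle IP and 69.9 ± 11.5 CPM in CNO IP. The groups overlapped, and the widest spread was in CNO IP, from 59.3 to 85.8 CPM. Within single vehicle mice the log2 ratio of the alpha sum, IP to input, was -0.23, -0.10, -0.14 and -0.26 on the deposited scale. In the CNO mice it was -0.24, -0.27, -0.19 and 0.06. The beta sum was 212 ± 13.3, 211 ± 17.4, 197 ± 16.8 and 198 ± 15.1 CPM in the same order, again with overlapping libraries. The gamma share of all clustered protocadherin reads was accordingly 57.8% in vehicle input and 79.8% in vehicle IP, while the beta share was 31.3% and 15.2% and the alpha share 10.9% and 5.001%.

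**Figure D1:**
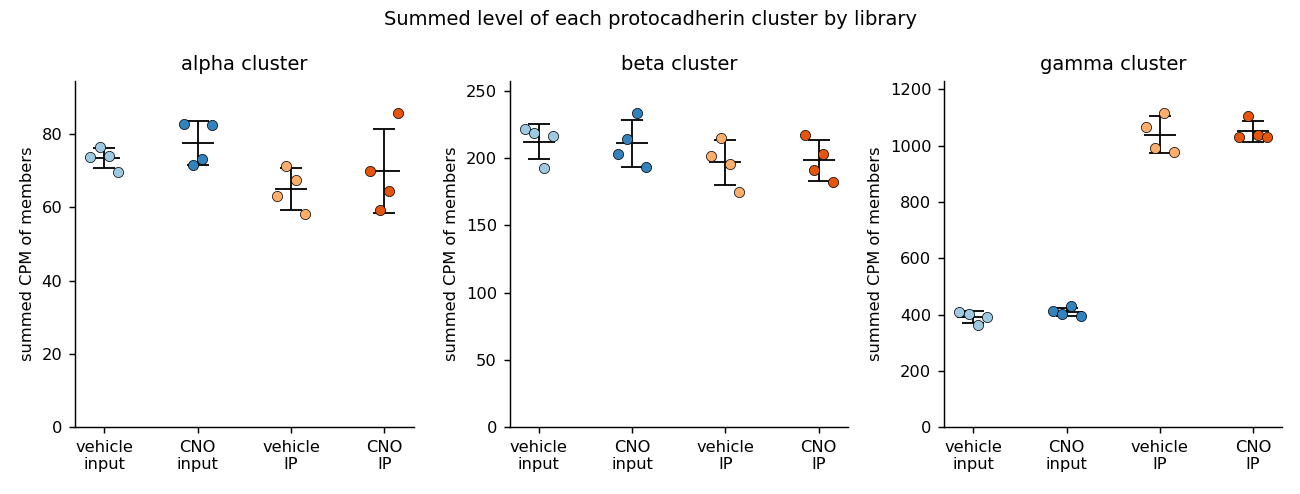
Summed CPM of the members of each cluster (y axis, linear from 0) in the 4 groups (x axis); points are libraries, horizontal lines the mean and bars the SD of 4. Gamma sums lie between 976 and 1117 CPM in the IP libraries and at or below 430 CPM in the input libraries, while the alpha and beta sums overlap.

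Pcdhgc3, the first of the gamma C-type genes (chr18:37806364-37841873), carried much of the gamma difference. In replicates 2 to 5 of vehicle input it was at 56.2, 52.3, 51.8 and 52.9 CPM, and in vehicle IP at 499, 457, 510 and 472 CPM. The CNO mice gave 63.7, 49.1, 53.3 and 48.1 CPM in input and 456, 524, 463 and 460 CPM in IP. The IP and input libraries did not overlap in either set of mice. The log2 difference between IP and input was 3.18 (SE 0.05, limma adjusted p = 5.80e-10) in vehicle mice, a 9.09-fold higher level, and 3.16 (SE 0.09, adjusted p = 1.36e-09) in CNO mice, 8.92-fold.

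Within single mice the IP level of Pcdhgc3 over its input level was 8.87, 8.75, 9.85 and 8.93 in the vehicle mice and 7.16, 10.7, 8.67 and 9.56 in the CNO mice. Of 15872 genes tested in vehicle mice, 24 (0.151%) had a larger IP to input ratio than Pcdhgc3, and in CNO mice 35 of 15819 (0.221%) had one. In vehicle mice its log2 difference lay inside the range of the 15 astrocyte markers and also inside that of the 10 interneuron markers (-0.86 to 3.24). In CNO mice, at 3.16, Pcdhgc3 lay inside the astrocyte range (1.55 to 3.66) and just above the interneuron range (-0.78 to 3.11). Pcdhgc3 made up 13.6% ± 0.522 of the gamma sum in vehicle input and 46.7% ± 1.16 in vehicle IP. Without Pcdhgc3 the gamma sum was still higher in IP, at 553 ± 43.6 CPM against 338 ± 18.5 CPM in vehicle mice and at 575 ± 4.64 CPM against 357 ± 13.5 CPM in CNO mice.

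Pcdhgc4, the next gene of the array (chr18:37815079-37841873), whose protein is known from mouse genetics as the isoform needed for neuron survival, was lower in level but also higher in IP. It was at 7.34, 7.78, 6.59 and 4.43 CPM in vehicle input and at 23.6, 27.7, 24.5 and 17.1 CPM in vehicle IP. In CNO input it was at 13.6, 6.00, 5.33 and 6.50 CPM, so that replicate 2 stood above the other input libraries, and in CNO IP at 26.4, 25.2, 22.7 and 23.3 CPM. The log2 difference was 1.84 (SE 0.20, limma adjusted p = 3.29e-05) in vehicle mice and 1.74 (SE 0.26, adjusted p = 0.000223) in CNO mice. IP and input libraries did not overlap in either.

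Pcdhgc5, the last gamma gene (chr18:37819513-37841873), differed little between the RNA sources. Its level was 98.8, 97.9, 91.6 and 96.4 CPM in vehicle input and 118, 112, 137 and 111 CPM in vehicle IP. The CNO mice had 93.4, 102, 106 and 111 CPM in input and 132, 123, 142 and 140 CPM in IP. All IP libraries lay above the input libraries of their own injection group. The log2 difference was 0.31 (SE 0.07, limma adjusted p = 0.00223) in vehicle mice and 0.38 (SE 0.07, adjusted p = 0.000475) in CNO mice. The call in vehicle mice ended with upper quartile scaling (0.16, adjusted p = 0.0561), and with total read scaling the difference was 0.04 in vehicle mice and 0.07 in CNO mice, with no call in either. The ratio of Pcdhgc3 to Pcdhgc5, which does not depend on scaling, was 0.554 ± 0.0163 in vehicle input, 0.525 ± 0.109 in CNO input, 4.07 ± 0.237 in vehicle IP and 3.56 ± 0.467 in CNO IP.

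The 2 C-type genes of the alpha cluster were not higher in IP. Pcdhac2 (chr18:37143503-37187657) was at 35.9, 38.5, 36.7 and 34.7 CPM in vehicle input and at 31.2, 34.9, 32.8 and 29.7 CPM in vehicle IP. The ranges overlapped between 34.7 and 34.9 CPM, and the log2 difference was -0.18 (SE 0.06, limma adjusted p = 0.0205). That call ended without vehicle input replicate 3 (adjusted p = 0.0593) or vehicle IP replicate 2 (0.0569). In CNO mice Pcdhac2 was at 42.4, 36.1, 37.5 and 42.5 CPM in input and at 34.0, 29.5, 30.8 and 40.5 CPM in IP, with overlap and a difference of -0.24 (SE 0.10, adjusted p = 0.0512) that became -0.24 with an adjusted p of 0.00295 when the mouse was kept as a block. Pcdhac1 was a weakly expressed gene, at 3.09, 3.72, 2.75 and 3.05 CPM in vehicle input and at 2.33, 2.44, 2.06 and 1.59 CPM in vehicle IP, without overlap (-0.59, SE 0.17, adjusted p = 0.0113). In CNO mice its difference of -0.33 (SE 0.21, adjusted p = 0.171) did not pass.

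**Figure D2:**
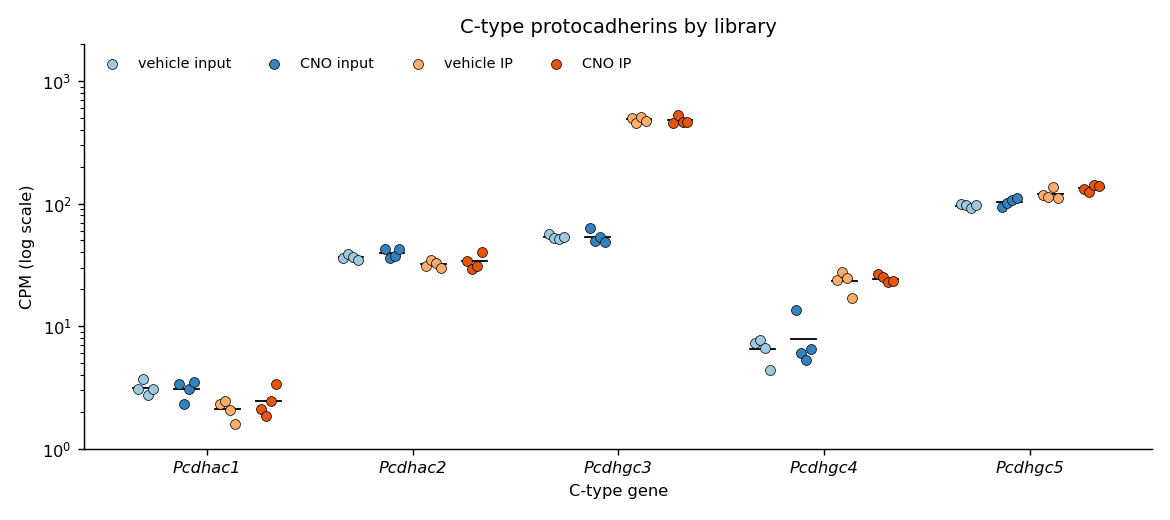
CPM (y axis, log scale) of the 5 C-type genes in the 16 libraries, coloured by group; points are libraries and short lines are means of 4. Pcdhgc3 stands at 457 to 510 CPM in vehicle IP against 51.8 to 56.2 CPM in vehicle input, while Pcdhac2 overlaps between IP and input.

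Per kilobase of exon not shared with other members, 3 of the 5 C-type genes led the order of levels in vehicle input. In vehicle input Pcdhgc5 came first at 17.5 ± 0.577 CPM per kb, then Pcdhgc3 at 15.8 ± 0.590 and Pcdhac2 at 12.04 ± 0.525, and the libraries of these neighbours did not overlap. Pcdhgb6 followed at 9.18 ± 0.586 CPM per kb. In vehicle IP Pcdhgc3 came first at 143 ± 7.16 CPM per kb, apart from Pcdhgc5 at 21.7 ± 2.15, which overlapped Pcdhgb6 at 18.02 ± 2.36. Pcdhac2 was in rank 8 there, at 10.6 ± 0.739. Of the 57 pairs of neighbours in the order, 5 did not overlap in vehicle input and 4 in vehicle IP, so most neighbouring ranks did not differ beyond the spread of the libraries.

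The other C-type genes stood lower, Pcdhgc4 in rank 31 of vehicle input and 13 of vehicle IP and Pcdhac1 in ranks 44 and 53. The alpha and beta genes interleaved, with a beta gene, Pcdhb1, the lowest of all members in vehicle input (0.211 CPM per kb). Pcdhb17 was the highest beta gene per length, at 5.30 CPM per kb in vehicle input and 4.76 in vehicle IP. The median beta gene was at 1.81 and 1.64 CPM per kb, the median alpha gene at 1.11 and 0.939 and the median gamma gene at 4.67 and 6.93 in those groups. The lowest alpha level was 0.263 CPM per kb in vehicle input and 0.155 in vehicle IP, both in Pcdha4. Pcdhac2 alone made up 49.6% of the alpha sum in vehicle input and 49.6% in vehicle IP. The per-length values rest on the annotated exon ends. They divide all reads counted for a gene by its own exon only. If reads in constant exons were counted for alpha or gamma genes, their values are raised against the beta genes, which have no constant exons. Levels per length are therefore not strictly comparable between clusters. Pcdhga4 was divided by 1.57 kb, as 1038 bases of its longest exon are shared with other members. The per-length values also count exon that other annotated genes overlap. This is most of the own exon of Pcdha4, Pcdha11, Pcdhb12 and Pcdhga11, and all of that of Pcdhga10. In Pcdhgc3, 1821 of 3380 own bases lay outside exons of other genes.

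**Figure D3:**
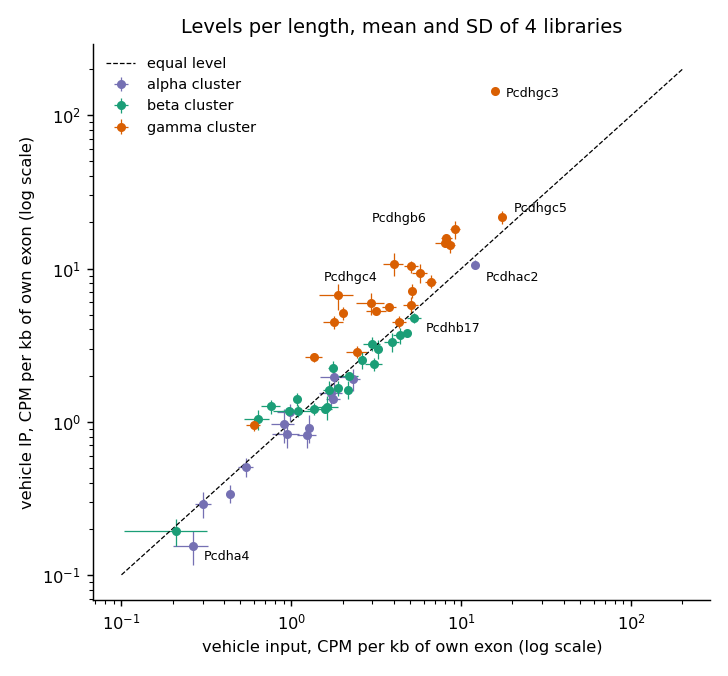
Level per kilobase of own exon in vehicle input (x axis) and vehicle IP (y axis), both log scale, for the 58 members coloured by cluster; points are means and bars the SD of 4 libraries. Most gamma genes lie above the line of equal level, with Pcdhgc3 farthest from it at 143 CPM per kb in IP, and most alpha and beta genes lie near it.

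Across the whole family in vehicle mice, 23 of 58 members were higher in IP, 10 were lower and 25 did not pass. Over all 15872 genes tested, 37.7% were higher and 37.2% lower, so the share of members that were higher (39.7%) was near the background, and the share that was lower (17.2%) was below it. All 58 members passed the filter on low values. IP and input libraries did not overlap for 23 members on the higher side and 8 on the lower side in vehicle mice, where 34.7% and 34.4% of all genes did so, and for 21 and 2 in CNO mice, beside 37.5% and 32.5%. In CNO mice 23 members were higher and 6 lower, where 40.0% and 35.0% of all genes were called. The clusters divided these calls unevenly. In vehicle mice the gamma cluster had 19 higher and 0 lower of 22, the beta cluster 4 higher and 5 lower of 22, and the alpha cluster 0 higher and 5 lower of 14. The median log2 difference was 0.81 for gamma, -0.12 for beta and -0.18 for alpha, beside 0.01 for all genes.

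The CNO mice, which share no library with the vehicle mice, gave 20 higher and 0 lower of 22 gamma genes (median 0.81), 3 higher and 5 lower of 22 beta genes (-0.02) and 0 higher and 1 lower of 14 alpha genes (-0.11), beside a median of 0.04 for all genes. The members called higher in both sets of mice numbered 22, 19 of them gamma genes, and those lower in both numbered 5, with 0 called in opposite directions. All 22 gamma and all 22 beta genes had the same sign in both sets, and 11 of 14 alpha genes. Across the 58 members Pearson's r between the differences in the 2 sets of mice was 0.978 and Spearman's rho 0.957, as a description, since members share libraries and constant exons. Shared calls, shared signs and these correlations were not computed over all genes. They are therefore not read as particular to the members.

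The deposited scaling sets where 0 lies in this comparison. With upper quartile scaling every gene's log2 difference moved by -0.15 in vehicle mice and by -0.21 in CNO mice, and with scaling to total reads in genes by -0.27 and -0.31. In vehicle mice 17 of 22 gamma genes were higher under each of these scalings. Total read scaling also brought 1 gamma gene, Pcdhga9, to a lower call (-0.21). Calls of lower alpha and beta genes rose from 5 and 5 to 7 and 11 with upper quartile scaling and to 9 and 14 with total read scaling, and the higher beta genes fell from 4 to 2 with each. Over all 15872 genes, lower calls rose likewise from 5903 to 7109 and 8052. Higher calls over all genes fell from 5978 to 4897 and 4187. As every gene moved equally, the order of the clusters by median could not change under these scalings.

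**Figure D4:**
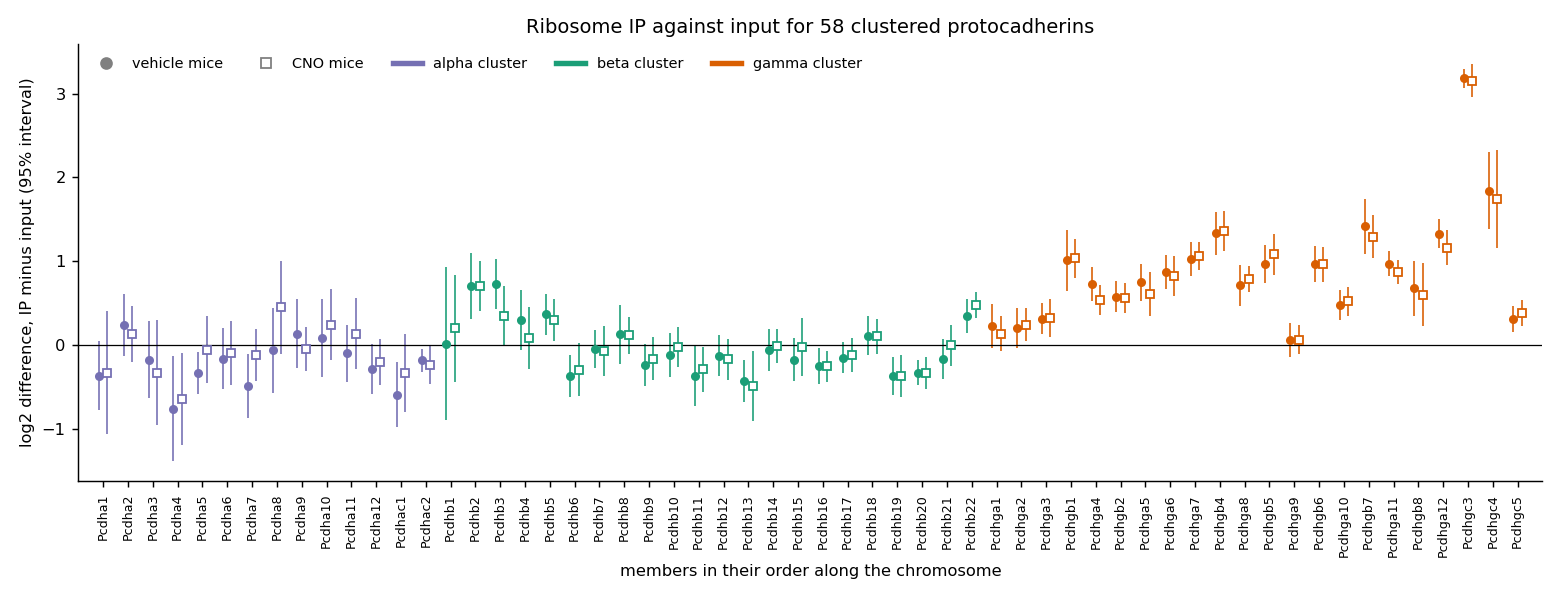
Log2 difference between IP and input (y axis, with 95% intervals) of the 58 members in chromosome order (x axis), coloured by cluster; filled circles are vehicle mice and open squares CNO mice. Of the 14 alpha genes 3 lie above 0 in vehicle mice and 4 in CNO mice, the beta genes lie on both sides of 0, and all 22 gamma genes lie above 0, up to 3.18 for Pcdhgc3.

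Of the gamma genes outside the C-type, those of the B subfamily were higher in IP in 7 of 7 cases (median log2 difference 0.97) and those of the A subfamily in 9 of 12 (median 0.72) in vehicle mice. Over all genes 37.7% were higher. Upper quartile and total read scaling each ended the call of Pcdhga3 (0.16 and 0.05), and with total read scaling Pcdhga9 was called lower. Pcdhgb7 was at 11.5, 11.3, 8.44 and 10.4 CPM in vehicle input and at 30.2, 29.6, 31.0 and 20.9 CPM in vehicle IP, with replicate 5 the lowest of the IP libraries. Its difference was 1.41 (SE 0.15, limma adjusted p = 1.845e-05), and 1.29 (SE 0.12) in CNO mice. Pcdhgb4 was at 7.43, 5.48, 6.73 and 5.84 CPM in vehicle input and at 16.6, 14.2, 17.9 and 15.2 CPM in vehicle IP, a difference of 1.33 (SE 0.11), and 1.36 (SE 0.11) in CNO mice. IP and input did not overlap for either gene.

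Pcdhga12, the last A gene before the C-type genes, was at 9.59, 8.97, 8.89 and 9.29 CPM in vehicle input and at 23.8, 22.4, 25.8 and 20.5 CPM in vehicle IP. The libraries did not overlap, and its difference was 1.33 (SE 0.08) in vehicle mice and 1.16 (SE 0.09) in CNO mice. Pcdhga7 was at 16.99, 16.88, 13.88 and 15.27 CPM in vehicle input and at 34.2, 27.8, 33.3 and 32.9 CPM in vehicle IP, a difference of 1.02 (SE 0.09) that was again without overlap. Pcdhgb5 was at 7.07, 6.47, 5.35 and 6.08 CPM in vehicle input and 12.1, 11.7, 13.4 and 11.4 CPM in vehicle IP (0.97, SE 0.10), and in CNO mice its difference was 1.08 (SE 0.11).

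The gamma genes that did not pass in vehicle mice were Pcdhga1 (0.23, adjusted p = 0.0980), Pcdhga2 (0.20, adjusted p = 0.112) and Pcdhga9 (0.06, adjusted p = 0.556), by limma. Pcdhga1 and Pcdhga2 are the 2 genes at the upstream end of the array, and Pcdhga9 lies in its middle between genes that were higher. Pcdhga9 was at 15.7, 14.3, 13.3 and 16.3 CPM in vehicle input and at 16.8, 14.8, 16.7 and 13.9 CPM in vehicle IP, with full overlap. Its neighbour Pcdhgb6 was at 22.6, 25.2, 22.0 and 24.4 CPM in vehicle input and at 47.1, 46.9, 52.8 and 38.1 CPM in vehicle IP (0.97, SE 0.09), and was named for its place beside Pcdhga9 after its values were seen. Across the 19 A and B genes Spearman's rho between place in the array and the difference was 0.409 in vehicle mice and 0.447 in CNO mice, a description over genes that share constant exons. In CNO mice Pcdhga2 was called higher by limma. That call ended with upper quartile scaling (0.03, adjusted p = 0.765) and without any of several single libraries, among them CNO input replicate 5 (adjusted p = 0.0710). With the mouse as a block Pcdhga2 was also called higher in vehicle mice (0.20, adjusted p = 0.0329).

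In the beta cluster the calls went both ways and the differences were small. The 4 genes that were higher in vehicle IP were Pcdhb2 (0.71), Pcdhb3 (0.73), Pcdhb5 (0.37) and Pcdhb22 (0.35). Upper quartile scaling ended the calls of Pcdhb5 (0.21, adjusted p = 0.102) and Pcdhb22 (0.19, adjusted p = 0.0799), and so did total read scaling (0.10 and 0.08). Pcdhb3 was at 3.38, 2.55, 2.72 and 2.87 CPM in vehicle input and at 4.53, 5.19, 5.17 and 4.18 CPM in vehicle IP, without overlap (SE 0.13, limma adjusted p = 0.000706). In CNO mice, Pcdhb3 was at 4.04, 4.07, 4.22 and 2.81 CPM in input and at 5.53, 4.11, 5.07 and 4.44 CPM in IP, which overlapped (0.35, adjusted p = 0.0686), and with the mouse as a block Pcdhb3 was called higher there (adjusted p = 0.0291). Pcdhb2, near the upstream end of the beta array, and Pcdhb22, at its downstream end, were also called higher in CNO mice (0.70 and 0.47). So was Pcdhb5. There the call of Pcdhb22 ended with total read scaling (0.16, adjusted p = 0.0539). That of Pcdhb5 ended with upper quartile scaling (0.08, adjusted p = 0.530). It also ended without any of several single libraries, among them CNO IP replicate 3 (adjusted p = 0.109).

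The beta genes that were lower in vehicle IP were Pcdhb6, Pcdhb13, Pcdhb16, Pcdhb19 and Pcdhb20, from -0.43 to -0.25. The call of Pcdhb16 ended when any of 6 libraries was left out, namely vehicle input replicates 2, 3 and 5 (adjusted p = 0.0902, 0.0880 and 0.0659) and vehicle IP replicates 2, 4 and 5 (0.0622, 0.0767 and 0.0835). Pcdhb13 was at 8.07, 8.10, 7.79 and 8.12 CPM in vehicle input and at 6.20, 6.41, 6.55 and 4.81 CPM in vehicle IP, without overlap (-0.43, SE 0.11, limma adjusted p = 0.00531). Pcdhb19 was at 23.7, 20.6, 19.1 and 24.2 CPM in vehicle input and at 17.19, 18.73, 17.04 and 14.62 CPM in vehicle IP, also without overlap (-0.37, SE 0.10). Pcdhb6 was at 6.46, 5.83, 4.97 and 6.26 CPM in vehicle input and at 4.55, 4.86, 4.37 and 4.33 CPM in vehicle IP, with no overlap (-0.37, SE 0.11). In CNO mice Pcdhb6 was called lower with the mouse as a block (-0.30, adjusted p = 0.0396).

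In CNO mice Pcdhb13 (-0.49), Pcdhb19 (-0.37), Pcdhb20 (-0.34), Pcdhb11 (-0.29) and Pcdhb16 (-0.26) were lower in IP. The calls of Pcdhb13 and Pcdhb11 each ended when any of several single libraries was left out, among them CNO IP replicate 3 (adjusted p = 0.0750 and 0.122). Pcdhb17, the beta gene with the highest level per length, was at 25.1, 26.7, 21.4 and 25.5 CPM in vehicle input and at 23.2, 23.83, 20.97 and 20.78 CPM in vehicle IP, with overlap and no call (-0.15, SE 0.08, adjusted p = 0.113). With the mouse as a block it was called lower (adjusted p = 0.0419), as were Pcdhb9 and Pcdhb11, so that 13 members were lower in vehicle mice in that fit.

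No alpha gene was called higher in IP in either set of mice. In vehicle mice the lower ones, besides Pcdhac1 and Pcdhac2, were Pcdha4, Pcdha5 and Pcdha7. The call of Pcdha5 (-0.33, limma adjusted p = 0.0204) ended without vehicle input replicate 2 (adjusted p = 0.0535) or 4 (0.0504). Pcdha4, a gene with very few reads, was at 0.549, 0.831, 0.966 and 0.703 CPM in vehicle input and at 0.437, 0.351, 0.400 and 0.613 CPM in vehicle IP, with overlap (-0.76, SE 0.28, limma adjusted p = 0.0322). In CNO mice it was at 0.540, 0.917, 0.713 and 0.814 CPM in input and at 0.491, 0.398, 0.477 and 0.518 CPM in IP, without overlap (-0.64, SE 0.25, adjusted p = 0.0354), the 1 alpha call there. Both calls of Pcdha4 ended on leaving out single libraries, for example vehicle input replicate 4 (adjusted p = 0.0835) and CNO input replicate 3 (adjusted p = 0.0950), and that in CNO mice also with the mouse as a block (adjusted p = 0.0522).

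Pcdha7 was at 3.06, 3.28, 3.19 and 2.96 CPM in vehicle input and at 2.33, 2.70, 2.41 and 1.61 CPM in vehicle IP, without overlap (-0.49, SE 0.17, adjusted p = 0.0262). It was at 3.50, 3.07, 2.61 and 3.11 CPM in CNO input and at 2.70, 2.54, 2.77 and 3.30 CPM in CNO IP, with overlap and no call (-0.12). Leaving out vehicle input replicate 2, 3 or 4 ended the call in vehicle mice (largest adjusted p = 0.0584). The difference between the 2 sets of mice for Pcdha7, as an interaction, was 0.37 (SE 0.22, adjusted p = 0.490) and did not pass.

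The comparison of CNO with vehicle asks whether these genes differed 2 h after CNO. An effect through the receptor and another effect of the ligand cannot be told apart in this design. In IP 0 of 58 members were called by limma in either direction, where 10.2% of all 15602 genes were higher and 7.08% lower. At an unadjusted p under 0.05 there was 1 member, beside 29.6% of all genes, and limma-voom on the recovered reads also called 0. No member had CNO IP and vehicle IP libraries that did not overlap, whereas 12.8% of all genes did so on the higher and 10.1% on the lower side. The median log2 difference was 0.04 over the gamma genes, 0.02 over the beta genes and 0.21 over the alpha genes, beside -0.01 over all genes. The alpha median was 0.04 without CNO IP replicate 5 and 0.33 without CNO IP replicate 3, and 0.13 without vehicle IP replicate 5.

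The 95% interval lay within a 2-fold change in either direction for 57 of the 58 members, the exception being Pcdhb1, and within 1.5-fold for 46. Pcdhgc3 differed by -0.03 between CNO IP and vehicle IP (95% interval -0.17 to 0.11), and Pcdhac2 by 0.06 (-0.17 to 0.28). Pcdhgc4 differed by 0.09 (-0.21 to 0.40).

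The members with the smallest p in IP were Pcdha11, Pcdhgc5 and Pcdhga8. Pcdha11 was at 2.47, 2.06, 2.79 and 2.14 CPM in vehicle IP and at 3.39, 2.52, 3.07 and 4.38 CPM in CNO IP, with overlap (0.48, SE 0.18, limma adjusted p = 0.110). Pcdhgc5, at 111 to 137 CPM in vehicle IP and 123 to 142 CPM in CNO IP, differed by 0.17 (SE 0.07, adjusted p = 0.171), and was called higher (0.23, adjusted p = 0.0419) when vehicle IP replicate 4, its highest vehicle library, was left out. Pcdhga8 was at 24.6, 19.4, 27.1 and 22.8 CPM in vehicle IP and at 27.0, 27.2, 25.4 and 28.7 CPM in CNO IP, with overlap (0.21, SE 0.10, adjusted p = 0.177). None of the 3 passed on all libraries.

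In input, too, 0 of 58 members were called by limma, beside 0.998% of all 15825 genes in either direction. There was 1 at an unadjusted p under 0.05, beside 10.1% of all genes, and 0 by limma-voom. Pcdhb3 differed by 0.38 (SE 0.17, adjusted p = 0.483), Pcdha12 by 0.22 (SE 0.10, adjusted p = 0.511) and Pcdhga1 by 0.24 (SE 0.12, adjusted p = 0.542). Pcdha12 was at 6.21, 5.30, 5.16 and 6.10 CPM in vehicle input and at 6.44, 6.36, 6.83 and 6.88 CPM in CNO input, the 1 member of 58 whose groups did not overlap, where 3.22% of all genes did so on the higher and 4.03% on the lower side. Pcdhga1 was at 9.06, 7.94, 6.47 and 8.24 CPM in vehicle input and at 8.98, 8.43, 10.3 and 9.62 CPM in CNO input, with overlap.

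The CNO effect in IP minus that in input was called for 0 of 58 members by limma, beside 4.76% of 16256 genes, with 0 at an unadjusted p under 0.05, beside 14.9% of genes, and 0 by limma-voom. The smallest p belonged to Pcdhb3 (-0.38, SE 0.21, adjusted p = 0.438), Pcdha7 (above) and Pcdha8 (0.51, SE 0.32, adjusted p = 0.541). Pcdha8 was at 0.869, 0.787, 0.701 and 0.539 CPM in vehicle IP and at 0.815, 0.712, 0.863 and 1.03 CPM in CNO IP, with overlap. Its interval, like that of Pcdhb1, reached beyond 2-fold.

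**Figure D5:**
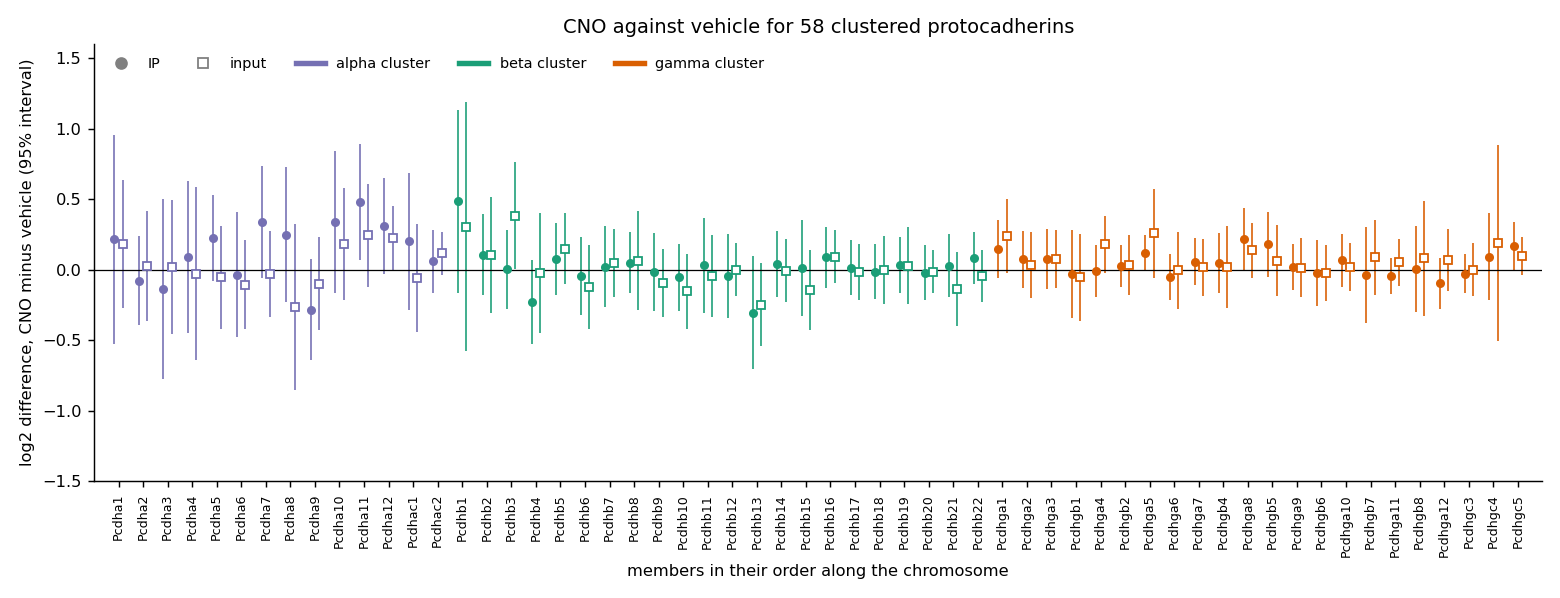
Log2 difference between CNO and vehicle (y axis, with 95% intervals) of the 58 members in chromosome order (x axis), coloured by cluster; filled circles are IP and open squares input. No member was called in either RNA source, intervals are narrowest for gamma genes such as Pcdhgc3 (-0.17 to 0.11 in IP), and that of Pcdhb1 exceeds a 2-fold change in both.

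For the median member the spread between libraries exceeded counting error. The median SD of log2 CPM between the libraries of a group was 0.142 to 0.167 over the 58 members, where the number of reads alone would give a median of 0.0634 to 0.0878. Of the 58 members 46 had at least 100 reads in every library, and the lowest had 11 reads in 1 library.

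Genes that act on or with the clusters were counted from lists. Cohesin and CTCF fold the DNA so that distant enhancers meet the variable exon promoters. In vehicle mice 5 of 10 of these genes were higher in IP and 2 lower (median 0.34), beside 37.7% and 37.2% of all genes, among them Smc3 (0.85), Rad21 (0.84) and Smc1a (0.80), subunits of the cohesin ring, and Stag1 (-0.45), another cohesin subunit. Ctcf itself differed by 0.07 and did not pass. With CNO in IP 0 of 10 were called by limma, beside 10.2% of all genes higher and 7.08% lower, and the list's median was -0.01.

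A list of 9 genes of DNA methylation, demethylation and silencing held 4 that were called with CNO in IP. Smchd1, a chromatin protein needed for silencing at the clustered protocadherins in mouse, was at 113, 115, 116 and 112 CPM in vehicle IP and at 198, 199, 207 and 220 CPM in CNO IP. The groups were far apart, and Smchd1 was higher by 0.85 (SE 0.04, limma adjusted p = 2.12e-06). In input its CNO difference was 0.12 (adjusted p = 0.619), and the difference between these effects was 0.73 (SE 0.08, adjusted p = 3.45e-05). Dnmt1, the maintenance DNA methyltransferase, was at 86.6, 87.0, 89.8 and 84.5 CPM in vehicle IP and at 124, 117, 120 and 141 CPM in CNO IP, again without overlap (0.52, SE 0.06, adjusted p = 0.000345).

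Of the 9 silencing genes 3 were higher with CNO in IP, Tet2 (0.34) being the third, and 1 was lower, Tet1 (-0.34), beside 10.2% and 7.08% of all genes, and the list's median was 0.09. Both encode enzymes that oxidise methylated cytosine. In vehicle mice 4 of the 9 were higher in IP than in input, among them Dnmt1 (0.49), Setdb1 (0.40) and Smchd1 (0.38), and Tet2 was lower (-0.32). The clustered protocadherins in the same IP libraries had no call with CNO.

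The proteases that shed and cleave protocadherins were 5 of 7 higher and 1 lower in vehicle IP than in input (median 0.40), beside 37.7% and 37.2% of all genes. Psen2 (0.82) and Aph1b (0.66), of the gamma-secretase complex, had the largest differences, followed by Psenen (-0.54) and Ncstn (0.50). Psen2 was at 23.1, 18.8, 21.4 and 24.5 CPM in vehicle IP and at 36.9, 34.9, 33.7 and 37.6 CPM in CNO IP, without overlap (0.71, SE 0.08, limma adjusted p = 0.000389), the 1 gene of 7 called with CNO. Over all genes 10.2% were called higher and 7.08% lower with CNO in IP. The gene for the sheddase Adam10 differed by 0.02 between IP and input and by -0.09 with CNO in IP, with no call.

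Genes of protocadherin partners and effectors, which include focal adhesion kinases, neuroligins and the WAVE actin regulatory complex, were mostly lower in vehicle IP: 12 of 16 were lower and 3 higher (median -0.27), beside the same background. Genes of the WAVE complex went opposite ways, with Cyfip1 (1.53) and Wasf3 (1.34) higher and Brk1 (-1.31) and Wasf1 (-1.29) lower. Wasf3 was the 1 gene of 16 called with CNO in IP (-0.20, adjusted p = 0.0480 by limma), beside 10.2% of all genes higher and 7.08% lower. Markers of medium spiny neurons (12 of 12), microglia (10 of 10) and endothelium (10 of 10) were also lower in vehicle IP. The part of any cell type in the list of partners and effectors was not tested.

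Of the 11 protocadherins outside the clusters, 7 were higher and 2 lower in vehicle IP (median 0.45), again beside 37.7% and 37.2% of all genes. Pcdh8 (1.18) and Pcdh18 (0.97) had the largest positive differences, and Pcdh12 (-1.68), known from endothelium, and Pcdh11x (-0.40) were lower. None had a difference as large as that of Pcdhgc3. With CNO in IP 0 of the 10 tested were called by limma, beside 10.2% of all genes higher and 7.08% lower.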

How the data were processed

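Gene values of 16 libraries were analysed, 4 in each of 4 groups. The authors deposited log2 CPM per gene and library; per the submitters' processing notes bcl2fastq 2.17, STAR, HTSeq, limma and mm10 were used, with annotation, strand and overlap settings not given in the sources used here. An identical repeated line was dropped, which left 17097 genes. Whole reads were recovered from the steps between low values: 100% of values were whole within 0.01 reads, and -7.54 stands for no reads. Depth was 32.8 to 61.5 M reads in genes.

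Differences were fitted over all genes on the deposited values with limma 3.58.1 (lmFit, then eBayes with trend and robust settings; R 4.3.3), without a block, for genes that reached the CPM of 10 reads in the median library in at least 4 libraries and 15 reads in all. Benjamini-Hochberg adjusted p under 0.05 was a call. Cluster levels are sums of CPM and have no test.

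IP and input of a mouse carry the same mouse code and deviated together (r = 0.189 to 0.546 in vehicle and 0.180 to 0.403 in CNO mice), so they are paired, and the blocked value is given where it changes a call in the text. CNO and vehicle numbers do not pair animals. Alternatives were log2(CPM + 1), no filter, upper quartile scaling, limma-voom on recovered reads, the block and each library left out. Scaling to total reads was added after seeing the data.

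The members and lists were chosen with earlier results of these data known. Named members were the C-type genes, the 6 highest and 6 lowest called IP to input differences, the 3 smallest p where nothing was called and the highest level per length of each cluster; up to 4 called genes of each pathway list were named. Ctcf, Adam10 and the gamma genes that did not pass were named besides. Exon lengths came from GENCODE M21 (GRCm38); the model at the RefSeq start of Pcdha10, which carries the symbol Pcdha11, was taken as Pcdha10. Sequences are not printed.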

Additional observations from a re-analysis of the deposited data

Results flagged for a closer look

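In 112 sets of 4 libraries (named members and cluster sums in each group), 5 held a library far from the other 3 by Dixon's 95% criterion on log2 CPM, and chance alone would give about 1 in 20. Pcdhgc3 was at 523.7 CPM in CNO IP replicate 3, against 456 to 463 CPM in the others, and the gamma sum of the same library was 1104 CPM, against 1029 to 1037 CPM. Pcdhgb7 was at 20.85 CPM in vehicle IP replicate 5, against 29.6 to 31.0 CPM. Pcdhb3 was at 2.814 CPM in CNO input replicate 5, against 4.04 to 4.22 CPM. Pcdhb13 was at 7.788 CPM in vehicle input replicate 4, against 8.07 to 8.12 CPM. Taken on CPM instead, the criterion also marked Pcdhgc4 in CNO input replicate 2, at 13.55 CPM against 5.33 to 6.50 CPM. The causes were not tested.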

How the results depend on the processing

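The count of members higher in IP stayed between 21 and 24 over the left-out libraries, with 19 under upper quartile scaling in both sets of mice and 19 (vehicle) and 17 (CNO) under total read scaling. The count of lower members moved with the scaling: in vehicle mice 18 with upper quartile and 24 with total read scaling, and 6 to 12 over left-out libraries, and in CNO mice 14, 20 and 3 to 7. Over all 15872 genes tested in vehicle mice, these scalings gave 4897 and 4187 higher and 7109 and 8052 lower calls. In CNO mice they gave 4882 and 4279 higher and 7242 and 8018 lower calls over 15819 genes. With CNO in IP 0 to 1 members were higher over left-out libraries. Log2 ratios of cluster sums, IP to input, moved in vehicle mice to -0.33 (alpha), -0.26 (beta) and 1.25 (gamma) with upper quartile scaling, to -0.44 (alpha), -0.37 (beta) and 1.14 (gamma) with total read scaling, and to 0.91 (gamma) as the mean of log2 CPM, from -0.18, -0.11 and 1.41 as deposited. In CNO mice they moved to -0.37 (alpha), -0.30 (beta) and 1.14 (gamma) with upper quartile scaling, to -0.47 (alpha), -0.40 (beta) and 1.04 (gamma) with total read scaling, and to 0.88 (gamma) as the mean of log2 CPM, from -0.15, -0.09 and 1.36. These shifts follow from the scaling, which moves every gene of a comparison equally, or from equal weights for members. With the replicate block 24 members were higher and 13 lower in vehicle mice and 24 and 7 in CNO mice, with no member called in the other 3 comparisons. For CNO against vehicle the numbers correlate by -0.315 to 0.178, and the samples share only a number there. Depth limits the members with few reads, such as Pcdhb1.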
